A study of Rattus norvegicus with 4 samples.

Results

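The miR-17 to 92 and miR-106b to 25 clusters encode 9 guide arms, the mature strands that are usually kept from each hairpin, and all 9 were looked up by name among the 765 rat mature miRNAs of the deposited table. They were rno-miR-17-5p, rno-miR-18a-5p, rno-miR-19a-3p, rno-miR-20a-5p, rno-miR-19b-3p and rno-miR-92a-3p of the miR-17 to 92 cluster, and rno-miR-106b-5p, rno-miR-93-5p and rno-miR-25-3p of the miR-106b to 25 cluster. Small RNA-seq was available for 4 libraries, 1 each of hypoxic exosomes, normoxic exosomes, hypoxic H9c2 cells and normoxic H9c2 cells. H9c2 is a single immortal cardiomyoblast line from rat heart, and the labels give no genetic change or drug for any group. Hypoxic cells were kept for 48 h in a low-oxygen chamber and normoxic cells in ordinary air with CO2, both in medium whose serum had been depleted of exosomes. Exosomes, small vesicles that cells release, were collected from the medium by ultracentrifugation. With 1 library per condition the spread between replicates is unknown, so no test between conditions was made. The study's methods give a number above 1 beside the RNA extraction and do not state what it counts, so each value may stand for a single culture or for a pool.

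The clusters are polycistronic, meaning that several hairpins are cut from 1 primary transcript. The miR-17 to 92 cluster is known from human and mouse work as a MYC target that promotes proliferation and restrains apoptosis, and its loss in mice impairs heart and lung development. A miRNA finds its targets mostly through its seed, bases 2 to 8 from the 5′ end, so members with a shared seed can repress overlapping sets of mRNAs. The seeds in the clusters are those of miR-17, miR-18, miR-19 and miR-92.

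The mature sequences of all 9 were found in the RefSeq table of rat miRNAs (build GRCr8) and are shown because the later comparisons are made between miRNAs with the same seed. Each is written 5′ to 3′, and capitals mark the seed. The miR-17 seed was held by 4 of them:
rno-miR-17-5p: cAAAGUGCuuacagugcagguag
rno-miR-20a-5p: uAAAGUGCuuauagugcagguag
rno-miR-93-5p: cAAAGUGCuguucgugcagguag
rno-miR-106b-5p: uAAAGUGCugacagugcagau
The miR-18 seed, which stood alone, was that of:
rno-miR-18a-5p: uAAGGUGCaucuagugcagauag
The miR-19 seed was held by a pair:
rno-miR-19a-3p: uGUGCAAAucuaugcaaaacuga
rno-miR-19b-3p: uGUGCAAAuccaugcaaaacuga
The miR-92 seed was held by 1 arm of each cluster:
rno-miR-92a-3p: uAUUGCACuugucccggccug
rno-miR-25-3p: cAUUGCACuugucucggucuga
The opposite arm of the miR-106b hairpin is shown as well, because its level differed from that of every other opposite arm:
rno-miR-106b-3p: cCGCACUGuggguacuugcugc

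Outside their seeds the relatives remained close. Counted from 1 at the 5′ end, with the base of the first-named miRNA given first, miR-19a-3p and miR-19b-3p differed only by U11C, and miR-17-5p and miR-20a-5p by C1U and C12U. Over the 21 bases of miR-92a-3p, miR-25-3p differed by U1C, C14U and C18U. Reads of such near-identical miRNAs may have been shared between names, and how the authors assigned them is not given in the sources used here. The 9 sequences were 21 to 23 bases long, with a GC content from 34.8% (miR-19a-3p) to 57.1% (miR-92a-3p). The letters GGAG, CCCU and GGCU, which occur in motifs linked to exosome loading in human or mouse cells, were searched on the mature strand as a description of these sequences. None of the 9 held any of them, while 8.08%, 9.52% and 10.8% of the 693 rat mature sequences in the table did.

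In GRCr8 the 6 mature arms of the miR-17 to 92 cluster lay at chr15:98587861-98588622 on the plus strand, within 762 bases. The 3 arms of miR-106b to 25 lay at chr12:22156652-22157123 on the minus strand, within 472 bases and inside the span of Mcm7, a gene for a subunit of the replicative helicase, on the same strand. A further copy on the X chromosome, at chrX:137342788-137343637 on the minus strand, encodes mature sequences identical to miR-17-5p, miR-19b-3p and miR-92a-3p. Those 3 levels therefore cannot be assigned to 1 locus from sequence alone. The 7 mature products that only the X copy makes, among them miR-20b-5p and miR-363-3p, were all listed at 0 in the 4 libraries.

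The deposited values are RPM, reads scaled to a fixed library size. Within a library the values were spaced in equal steps, the lowest of them at 10 steps, and a step was taken as 1 read. A miRNA listed at 0 therefore had under 10 reads, and one with 10 or more is called identified. The RPM scale stood for 10404866 to 13285239 reads per library, but miRNAs held 0.881% of these reads in hypoxic exosomes, 0.115% in normoxic exosomes, 26.9% in hypoxic cells and 51.0% in normoxic cells. The miRNA reads numbered 108860, 13598, 3578371 and 5310302 in the same order, and what filled the remaining reads was not analysed here. Ratios are given on the RPM scale and also scaled to the miRNA total of each library, which asks what share of the miRNA reads a miRNA held. Intervals are exact ones at 95% (Clopper-Pearson, or Poisson for a level). They express the error of counting reads alone, and reads made by PCR need not be separate molecules. miR-210-3p, a miRNA known to be induced by low oxygen, had 1.48 times the RPM in hypoxic relative to normoxic cells, and 2.80 times the share of miRNA reads.

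In cells, all 9 guide arms were identified in both libraries and covered a wide range of levels. Together they held 44105 reads in hypoxic cells, 1.23% of the miRNA reads (1.22% to 1.24%), against 49536 reads or 0.933% (0.925% to 0.941%) in normoxic cells. The summed level was 3320 RPM in hypoxic cells and 4761 RPM in normoxic cells. The share of miRNA reads was thus higher and the RPM lower in hypoxic cells. A change in copies per cell and a change in the number of cells with the miRNA cannot be told apart in these bulk libraries.

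The miR-17 seed group contributed the most reads in cells. miR-20a-5p, which in human cells is known to repress E2F factors, was the highest of the 9 with 807.7 RPM in hypoxic cells and 1070 RPM in normoxic cells, rank 41 and rank 46 among the miRNAs of these libraries. miR-93-5p, a relative from the Mcm7 locus, had 641 RPM in hypoxic cells against 790 RPM in normoxic cells. miR-17-5p, the founding arm of the larger cluster, had 424 RPM in hypoxic cells against 692 RPM in normoxic cells. These arms stood among the 63 most abundant miRNAs of both cell libraries. miR-106b-5p, from the same primary transcript as miR-93-5p, was lower, with 74.1 RPM in hypoxic cells and 100.3 RPM in normoxic cells.

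The pair with the miR-92 seed reached similar levels. miR-25-3p, known from mouse hearts as a regulator of calcium handling, had 707 RPM in hypoxic cells and 1009 RPM in normoxic cells. miR-92a-3p, known in mice for restraining the growth of blood vessels, had 510 RPM in hypoxic cells and 891 RPM in normoxic cells. The miR-19 pair, known in mice as the main oncogenic part of the cluster, was lower. miR-19a-3p had 109.7 RPM in hypoxic cells against 127 RPM in normoxic cells, and miR-19b-3p had 34.5 RPM against 55.2 RPM.

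miR-18a-5p was the lowest of the 9, with 12.2 RPM (10.4 to 14.2) in hypoxic cells and 26.2 RPM (23.2 to 29.5) in normoxic cells. Within the miR-17 to 92 cluster, levels thus ran from that of miR-18a-5p to that of miR-20a-5p, although the hairpins share a transcript. In both cell libraries the order from highest to lowest began with miR-20a-5p and miR-25-3p and ended with miR-19a-3p, miR-106b-5p, miR-19b-3p and miR-18a-5p. The places between were held by miR-93-5p, miR-92a-3p and miR-17-5p in hypoxic cells and by miR-92a-3p, miR-93-5p and miR-17-5p in normoxic cells. No neighbours in these orders had overlapping counting intervals, but the spread between replicates is unknown. Small RNA levels of different miRNAs also carry ligation and PCR preferences, which were not measured here.

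**Figure D1:**
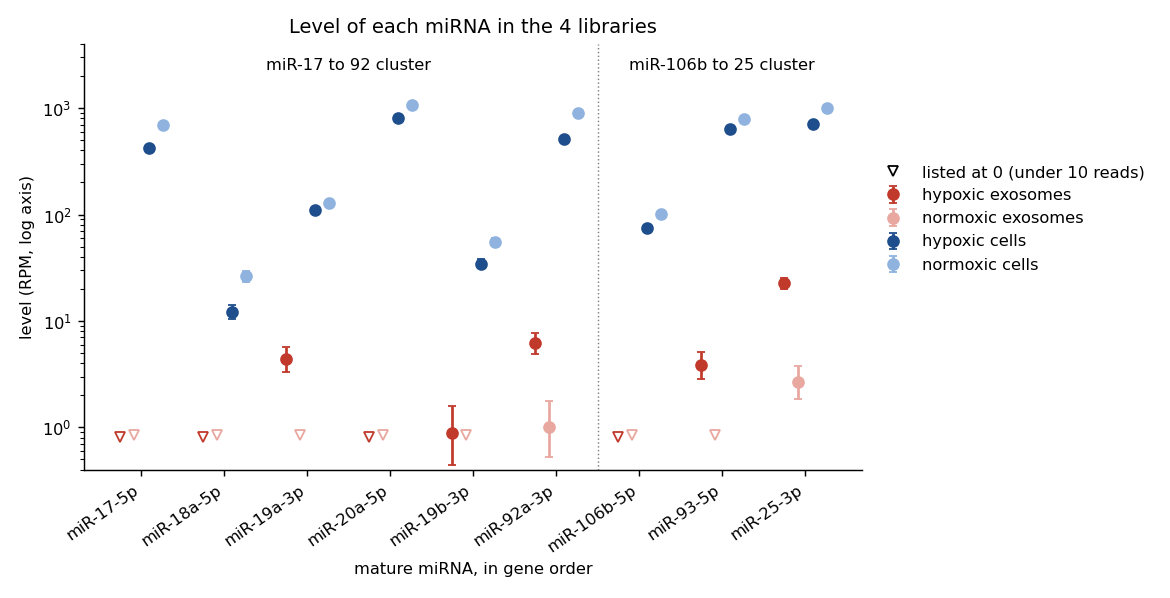
Level of each guide arm in RPM (log axis) in hypoxic exosomes, normoxic exosomes, hypoxic cells and normoxic cells, with 95% Poisson intervals from the reads as bars and open triangles for miRNAs listed at 0 (drawn at the RPM of 10 reads). All 9 were identified in cells, 5 in hypoxic exosomes and 2 in normoxic exosomes.

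Hypoxic cells were set against normoxic cells to see whether the clusters moved with oxygen. On the RPM scale all 9 guide arms were lower in hypoxic cells, as were 274 of the 316 miRNAs identified in both libraries. Their ratios ran from 0.465 to 0.862, with a median of 0.701 against 0.612 over all 316. Scaled to the miRNA total the direction turned: 8 of the 9 had ratios above 1, with a median of 1.33 against 1.16 over all 316. The median of the 9 thus lay above that of all miRNAs on either scale, but miR-18a-5p and miR-92a-3p lay below the median of all miRNAs and miR-17-5p lay on it. Whether their amount per cell changed cannot be read from these values.

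miR-18a-5p was the only 1 of the 9 with a ratio below 0.5 on the RPM scale, at 0.465 (0.380 to 0.567), and its interval crossed that threshold. A ratio below 0.5 was found for 27.8% of the 316 miRNAs and a ratio above 2 for 1.27%, so 1 of 9 was a smaller share than the background. Scaled to the miRNA total, miR-18a-5p had a ratio of 0.881 and was the only 1 below 1. On that scale none of the 9 passed either threshold, where 3.80% of all miRNAs were below 0.5 and 11.7% above 2.

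Each of the miR-106b to 25 arms had a higher ratio than 4 of the 6 arms of the larger cluster. miR-93-5p had a ratio of 0.812 (0.787 to 0.837), miR-106b-5p of 0.739 (0.677 to 0.807) and miR-25-3p of 0.701 (0.682 to 0.721). Their summed reads gave a ratio of 0.749 (0.734 to 0.764), against 0.663 (0.652 to 0.674) for the 6 arms of miR-17 to 92. These intervals do not overlap, but with 1 library per condition they set apart the libraries and not the conditions.

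Within the miR-17 to 92 cluster the arms did not keep 1 ratio. miR-19a-3p had the highest ratio, 0.862 (0.8001 to 0.930), and miR-20a-5p followed at 0.755 (0.735 to 0.775). miR-19b-3p was at 0.625 (0.551 to 0.708), miR-17-5p at 0.612 (0.591 to 0.634) and miR-92a-3p at 0.572 (0.554 to 0.590). A comparison of 2 miRNAs within the same pair of libraries does not depend on the scale, so the spread can be read as a ratio of ratios. It was 1.86 (1.5001 to 2.30) for miR-19a-3p over miR-18a-5p, which are neighbours on the transcript.

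Arms with the same seed also differed. The ratio of miR-20a-5p was 1.23 times that of miR-17-5p (1.18 to 1.29), and the ratio of miR-93-5p was 1.33 times that of miR-17-5p (1.27 to 1.39). Between miR-19a-3p and miR-19b-3p, a single base apart, the factor was 1.38 (1.19 to 1.60). Between miR-25-3p and miR-92a-3p it was 1.23 (1.17 to 1.28). miR-93-5p and miR-106b-5p, both from the Mcm7 locus, were 1.10 apart (1.001 to 1.21). The other pairs with the miR-17 seed were miR-93-5p over miR-20a-5p, at 1.08 (1.03 to 1.12), miR-106b-5p over miR-17-5p, at 1.21 (1.10 to 1.33), and miR-20a-5p over miR-106b-5p, at 1.02 (0.932 to 1.12). The last of these was the only same-seed pair in cells whose interval held 1.

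**Figure D2:**
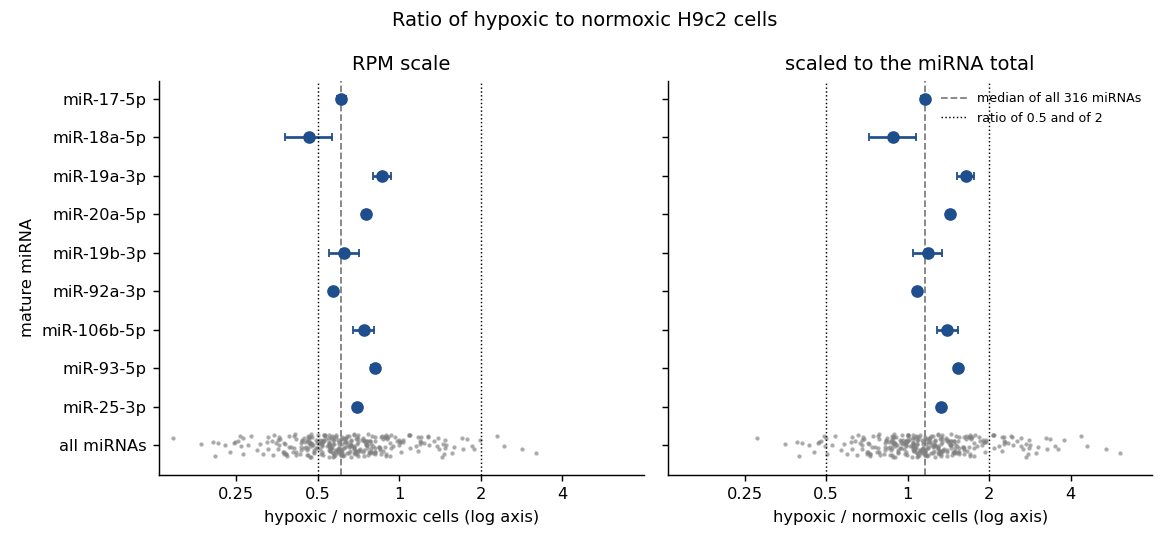
Ratio of hypoxic to normoxic cells for each guide arm (log axis) with 95% exact intervals from the reads, on the RPM scale and scaled to the miRNA total, above the single values of all 316 miRNAs. All 9 lie below 1 on the RPM scale, and 8 of 9 lie above 1 when scaled to the miRNA total, with miR-18a-5p lowest and miR-19a-3p highest on both.

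Other miRNAs with the same seeds added little in cells. miR-32-5p, which carries the miR-92 seed from another chromosome, had 8.66 RPM in hypoxic cells and 22.9 RPM in normoxic cells, a ratio of 0.378 (0.3002 to 0.475). miR-92b-3p, also of that seed, had 1.20 RPM in hypoxic cells against 2.31 RPM in normoxic cells. Both were listed at 0 in the exosome libraries, so that the exosomal reads of this seed were those of miR-25-3p and miR-92a-3p.

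For comparison, the miR-15 family, also known for cell cycle control, had a median RPM ratio of 0.682 over the 4 of 5 arms identified in both cell libraries. The list of miR-23a, miR-23b, miR-27a, miR-27b and miR-24, also from polycistronic transcripts, had a median of 0.707 over 5 of 5. The 9 guide arms, at 0.701, stood between these lists. In hypoxic exosomes 0 of 5 arms of the miR-15 family were identified and 4 of 5 of the other list. Of the 331 miRNAs identified in hypoxic cells, 58.3% were listed at 0 there. The lists were not matched for level. In hypoxic cells miR-16-5p, the highest of the family, had 353 RPM. The 4 identified arms of the other list had 1300 to 3478 RPM, and miR-23b-3p, listed at 0 in exosomes, had 345 RPM.

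The opposite arms of the hairpins were compared with the guide arms, since cleavage of 1 hairpin makes both. Of the 9 opposite arms, 6 were identified in both cell libraries. Their median RPM ratio of hypoxic to normoxic cells was 0.671, and 2 of the 6 had ratios below 0.5. These were miR-92a-1-5p (30 reads in hypoxic cells and 57 in normoxic cells) and miR-25-5p (23 and 37 reads). Both intervals crossed that threshold, at 0.256 to 0.652 and 0.276 to 0.841. A ratio below 0.5 was found for 27.8% of the 316 miRNAs identified in both cell libraries. The opposite arms of miR-19a, miR-20a and miR-19b-1 were listed at 0 in all libraries.

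For most hairpins the guide arm held nearly all the reads of its hairpin. The opposite arm of miR-17 held 1.92% of the reads of both arms in hypoxic cells and 2.03% in normoxic cells, and that of miR-93 held 0.850% and 0.809%. The hairpin of miR-106b was different: miR-106b-3p had 105.3 RPM in hypoxic cells and 138 RPM in normoxic cells. It thus held 58.7% (56.7% to 60.7%) of the reads of both arms in hypoxic cells and 57.9% (55.9% to 59.8%) in normoxic cells, more than the arm listed as the guide. The ratio of miR-106b-3p was 1.03 times that of miR-106b-5p (0.922 to 1.16).

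The miR-18a hairpin was intermediate. miR-18a-3p had 84 reads in each cell library, which was 34.1% (28.2% to 40.4%) of the reads of both arms in hypoxic cells and 23.5% (19.2% to 28.3%) in normoxic cells. The intervals overlapped at the edge, which does not settle whether the shares differed beyond counting error. No ratio of ratios was taken for these arms. In RPM, miR-18a-3p had 6.32 in hypoxic cells against 8.07 in normoxic cells.

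**Figure D3:**
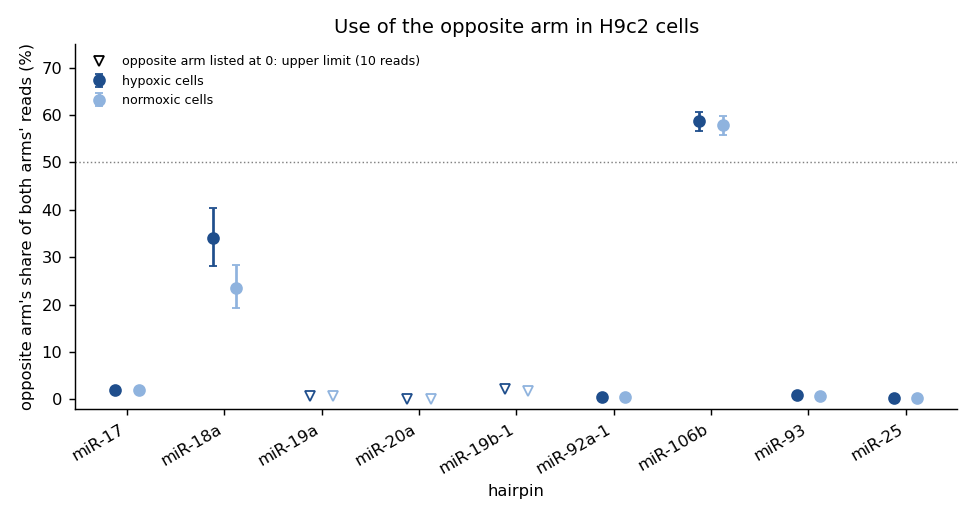
Share of the reads of both arms (%) held by the opposite arm of each hairpin in hypoxic and normoxic cells, with 95% exact intervals, and open triangles for upper limits where the opposite arm was listed at 0. Only the miR-106b hairpin lies above 50%, at 58.7% in hypoxic cells and 57.9% in normoxic cells.

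Exosomes carried few reads of the clusters. In hypoxic exosomes 5 of the 9 guide arms were identified, with 469 reads or 0.431% of the miRNA reads (0.393% to 0.472%). In normoxic exosomes 2 were identified, with 44 reads or 0.324% (0.235% to 0.434%). The summed level was 38.0 RPM in hypoxic exosomes and 3.71 RPM in normoxic exosomes.

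miR-25-3p was the highest of the 9 in both exosome libraries, with 22.7 RPM (280 reads) in hypoxic exosomes and 2.70 RPM (32 reads) in normoxic exosomes. miR-92a-3p had 6.15 RPM (76 reads) in hypoxic exosomes and 1.01 RPM (12 reads) in normoxic exosomes. These were the only guide arms of the clusters identified in all 4 libraries, and they share the miR-92 seed.

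The remaining arms found in vesicles were identified in hypoxic exosomes only. miR-19a-3p had 4.37 RPM (54 reads), miR-93-5p 3.89 RPM (48 reads) and miR-19b-3p 0.890 RPM (11 reads). The counting intervals of miR-93-5p and miR-19a-3p overlapped each other and that of miR-92a-3p. Whether these 3 arms differed in hypoxic exosomes beyond counting error was not tested. In normoxic exosomes miR-19a-3p, miR-93-5p and miR-19b-3p had under 10 reads each. If they had held the same share of miRNA reads there as in hypoxic exosomes, they would have had 6.75, 5.996 and 1.37 reads, so their absence from the list was not detectable as a difference at this depth.

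miR-17-5p, miR-20a-5p, miR-18a-5p and miR-106b-5p were listed at 0 in both exosome libraries. Of the 331 miRNAs identified in hypoxic cells, 58.3% were listed at 0 in hypoxic exosomes, and 4 of the 9 guide arms were. Of the 338 identified in normoxic cells, 78.4% were listed at 0 in normoxic exosomes, and 7 of the 9 were. The guide arms were thus not listed at 0 more often than miRNAs of all levels in hypoxic exosomes. That background is not matched for level in cells, and the arms at 0 included abundant ones. Of the 108 miRNAs with at least the RPM of miR-106b-5p in hypoxic cells, 20.4% were at 0. These included miR-20a-5p, miR-17-5p and miR-106b-5p.

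Among the 63 miRNAs that had at least the RPM of miR-17-5p in hypoxic cells, a set chosen after the values were seen, 5 (7.94%) were listed at 0 in hypoxic exosomes. miR-20a-5p and miR-17-5p were 2 of these 5, and miR-3596d, miR-30c-5p and miR-450b-5p were the others. At the share they held in hypoxic cells, miR-20a-5p would have had 326 reads in hypoxic exosomes and miR-17-5p 171 reads, where both had under 10. For miR-106b-5p the value at equal share was 29.97 reads. For miR-18a-5p it was 4.93 reads, so its listing at 0 carries no information.

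Hypoxic exosomes were compared with hypoxic cells to see which arms were found in vesicles in proportion to the cell. On the RPM scale all 5 identified in both were below 0.5, as were 84.1% of the 138 miRNAs identified in both libraries. The miRNA total itself had a ratio of 0.0327 on this scale, so shares of the miRNA reads were compared instead. On it the median ratio of the 5 was 0.789, against 1.51 over all 138, and these 5 leave out the arms listed at 0. miR-21-5p made up 2.18% of this total for hypoxic exosomes and 48.5% for hypoxic cells. With it left out of the totals, the medians were 0.415 and 0.792.

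The arms fell far apart. miR-25-3p held 0.979 times (0.867 to 1.10) the share in hypoxic exosomes that it held in hypoxic cells, and miR-19a-3p 1.22 times (0.910 to 1.60). miR-19b-3p was at 0.789, with a wide interval of 0.391 to 1.43 from 11 reads. miR-92a-3p was at 0.369 (0.290 to 0.462) and miR-93-5p at 0.185 (0.137 to 0.246), both below 0.5, which was the case for 31.9% of the 138 miRNAs. None of the 5 was above 2, where 44.9% of the 138 were. With miR-21-5p left out of the totals, miR-25-3p was at 0.515, so nearness to an equal share depends on that scale.

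For the arms listed at 0, 10 reads gave an upper limit. The ratio was below 0.0306 for miR-20a-5p, below 0.0584 for miR-17-5p and below 0.334 for miR-106b-5p. The limits for miR-20a-5p and miR-17-5p lie under the whole interval of miR-93-5p, the other abundant arm with their seed. The limit for miR-18a-5p, 2.03, is not informative.

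miR-106b-3p, the opposite arm, differed from its guide in exosomes. It had 10.5 RPM (130 reads) in hypoxic exosomes and was listed at 0 in normoxic exosomes, while miR-106b-5p was listed at 0 in both. Its share of miRNA reads in hypoxic exosomes was 3.05 times (2.53 to 3.66) that in hypoxic cells, against less than 0.334 times for miR-106b-5p. Of the 138 miRNAs identified in both libraries, 44.9% were above 2 on this scale and the median was 1.51, so a ratio of this size was common. With miR-21-5p left out of the totals, miR-106b-3p was at 1.61, against a median of 0.792. No other opposite arm was identified in exosomes. Their upper limits against hypoxic cells were 2.99 or higher where they had reads in those cells, too high to place them.

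The products of the Mcm7 locus identified in hypoxic exosomes, miR-106b-3p, miR-93-5p and miR-25-3p, were thus at 3.05, 0.185 and 0.979 times their share in hypoxic cells, although they come from 1 primary transcript.

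**Figure D4:**
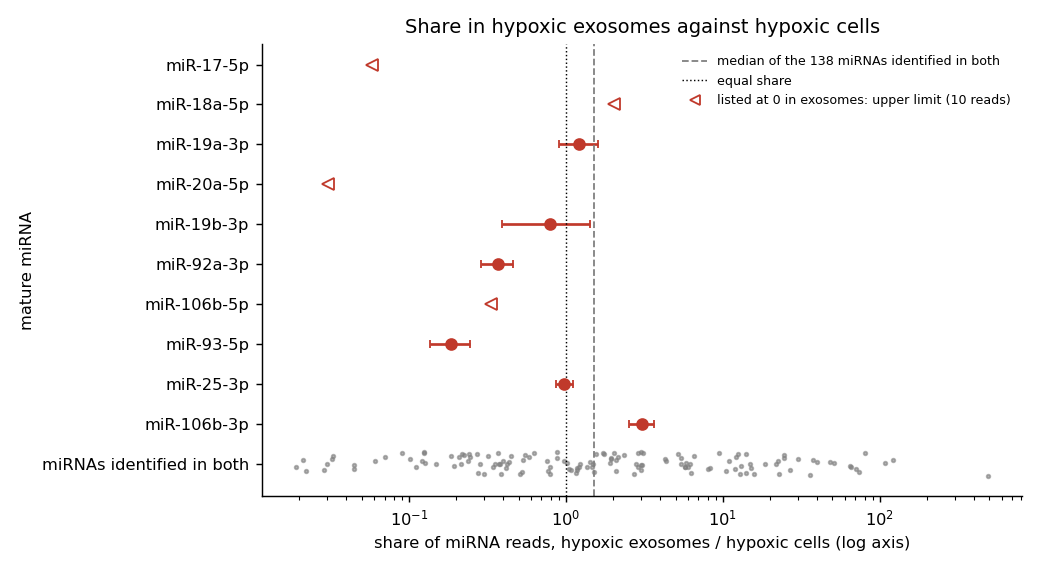
Share of miRNA reads in hypoxic exosomes relative to hypoxic cells (log axis) for the 9 guide arms and miR-106b-3p, with 95% exact intervals, open triangles for upper limits of arms listed at 0, and the 138 miRNAs identified in both libraries as grey points. miR-25-3p and miR-19a-3p lie near 1, miR-92a-3p and miR-93-5p below 0.5, miR-17-5p and miR-20a-5p have limits below 0.1, and miR-106b-3p lies at 3.05.

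By seed, the make-up of the clusters' reads differed between exosomes and cells. The miR-92 seed held 75.9% (71.8% to 79.7%) of the 469 reads in hypoxic exosomes and 36.7% of those in hypoxic cells. The miR-17 seed held 10.2% (7.64% to 13.3%) in hypoxic exosomes and 58.6% in hypoxic cells. The miR-19 seed held 13.9% (10.9% to 17.3%) in hypoxic exosomes against 4.34% in hypoxic cells. If every arm listed at 0 in hypoxic exosomes had 9 reads, the most the listing allows, the miR-17 seed would hold at most 15.1% and the miR-92 seed at least 70.5%. The miR-92 seed would therefore hold the largest share either way, while the order of the miR-17 and miR-19 seeds would turn, and shares within the 9 do not depend on miR-21-5p.

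Relative to hypoxic cells, the summed share of miRNA reads in hypoxic exosomes was 0.0610 (0.0450 to 0.0809) for the miR-17 seed, 0.724 (0.6497 to 0.804) for the miR-92 seed and 1.12 (0.857 to 1.43) for the miR-19 seed. With 9 reads for each arm listed at 0 the miR-17 seed would reach 0.0953. With miR-21-5p left out of the totals these ratios were 0.0321 for the miR-17 seed, 0.381 for the miR-92 seed and 0.587 for the miR-19 seed, which turned from above to below 1, and miR-19a-3p itself was at 0.641.

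In normoxic exosomes all 44 reads were of the miR-92 seed, but with so few reads the listing says less. If each of the 7 other arms had 9 reads there, the miR-92 seed would hold 41.1% of the reads, close to its 39.9% in normoxic cells. For the miR-92 seed the difference in make-up between exosomes and cells can therefore be read under hypoxia only. With 9 reads for each of its own arms, the miR-17 seed would hold at most 45% in normoxic exosomes, against 55.7% in normoxic cells. That limit leaves out the counting error of so few reads.

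**Figure D5:**
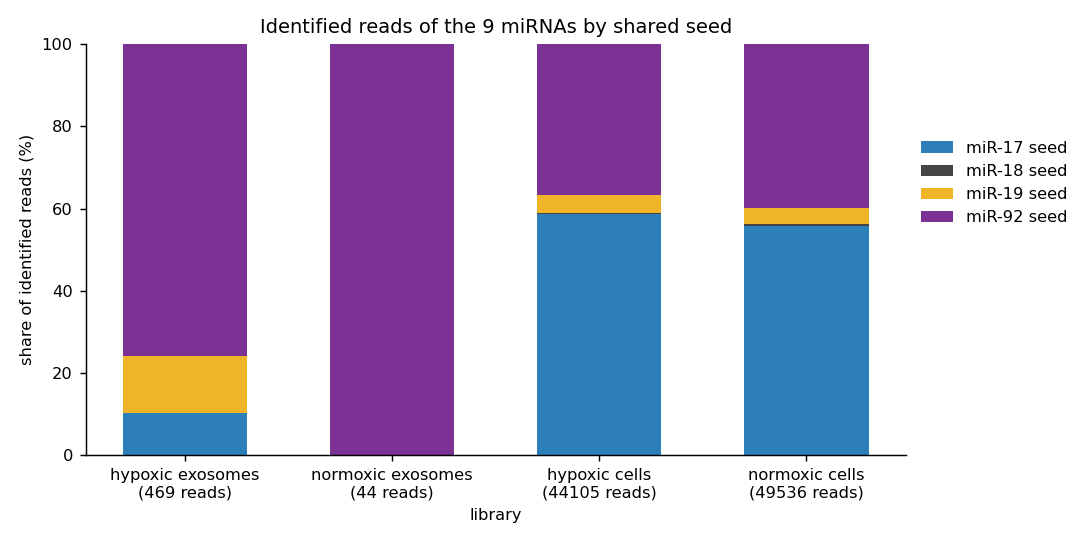
Share (%) of the identified reads of the 9 guide arms that each seed held in hypoxic exosomes, normoxic exosomes, hypoxic cells and normoxic cells, with the number of reads under each bar. The miR-92 seed holds 75.9% in hypoxic exosomes against 36.7% in hypoxic cells, and the normoxic exosome bar rests on 44 reads.

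Normoxic exosomes were compared with normoxic cells in the same way. On the RPM scale both arms identified there were below 0.5, as were 93.2% of the 73 miRNAs identified in both libraries. As shares of miRNA reads, miR-25-3p was at 1.19 (0.814 to 1.68) and miR-92a-3p at 0.505 (0.261 to 0.883), so that 0 of 2 were below 0.5, against 30.1% of the 73. miR-21-5p made up 2.49% of the miRNA reads there and 54.9% of those of normoxic cells. With it left out of the totals, miR-25-3p was at 0.551 and miR-92a-3p at 0.234, so that the direction of miR-25-3p turned. On that scale 1 of 2 was below 0.5, as were 30 of the 73. By the trimmed mean of M values miR-25-3p was at 0.379 and miR-92a-3p at 0.161. There 2 of 2 were below 0.5, with no count made over the 73. The upper limits for arms listed at 0 were 0.351 for miR-20a-5p, 0.475 for miR-93-5p and 0.543 for miR-17-5p.

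The distance between the pair of the miR-92 seed was seen in both conditions. The exosome to cell ratio of miR-25-3p was 2.66 times (2.05 to 3.48) that of miR-92a-3p under hypoxia and 2.36 times (1.18 to 5.03) under normoxia. This factor does not depend on the scale. The libraries are separate, but each condition has only 1 pair of them.

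Hypoxic exosomes were finally set against normoxic exosomes. On the RPM scale miR-25-3p was 8.41 times higher (5.82 to 12.5) and miR-92a-3p 6.08 times higher (3.29 to 12.3) in hypoxic exosomes. Both passed the threshold of 2, as did 84.9% of the 73 miRNAs identified in both exosome libraries, whose median ratio was 6.73. Scaled to the miRNA total, which was 7.69 times higher in hypoxic exosomes, miR-25-3p was at 1.09 (0.757 to 1.63) and miR-92a-3p at 0.791 (0.428 to 1.60). Neither passed a threshold on that scale, where 28.8% of the 73 were below 0.5 and 13.7% above 2. Both intervals held the ratio of the miRNA total, and the ratios of the pair differed by a factor of 1.38 (0.617 to 2.91), within counting error.

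Lower limits could be set for arms under 10 reads in normoxic exosomes. On the RPM scale the ratio of hypoxic to normoxic exosomes was above 5.19 for miR-19a-3p, above 4.61 for miR-93-5p, above 1.06 for miR-19b-3p and above 12.5 for miR-106b-3p. As a share of miRNA reads the limit was above 1 only for miR-106b-3p, at 1.62. On that scale 34 of the 73 miRNAs identified in both exosome libraries had ratios above 1. At its share in hypoxic exosomes miR-106b-3p would have had 16.2 reads in normoxic exosomes, where it had under 10.

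miR-25-3p and miR-92a-3p were lower in RPM in hypoxic than in normoxic cells and higher in hypoxic than in normoxic exosomes, which was also the case for 63 of the 71 miRNAs identified in all 4 libraries. The miRNAs of most similar pattern were found among these 71, by the root mean square difference of log2 RPM centred on each miRNA's mean over the 4 libraries. Nearest to miR-25-3p were miR-181b-5p (0.14), miR-185-5p (0.15) and miR-423-3p (0.20). Nearest to miR-92a-3p were let-7b-5p (0.12), miR-30d-5p (0.30) and miR-181a-5p (0.47). As an example of the likeness, let-7b-5p had 28.2, 4.55, 2046 and 4493 RPM in hypoxic exosomes, normoxic exosomes, hypoxic cells and normoxic cells. Over 4 libraries such likeness is a description, and all of these points share the change in miRNA total.

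miR-25-3p and miR-92a-3p are also abundant in red blood cells, so markers of other cell types were examined. Of 4 red blood cell markers, 2 were identified in hypoxic exosomes, 1 in normoxic exosomes, 1 in hypoxic cells and 2 in normoxic cells, summing to 19.6, 3.54, 1.13 and 2.79 RPM. As shares of the miRNA reads these were 0.222% for hypoxic exosomes, 0.309% for normoxic exosomes, 0.000419% for hypoxic cells and 0.000546% for normoxic cells. Most of the marker reads were of miR-486, with 223 in hypoxic exosomes, 42 in normoxic exosomes, 15 in hypoxic cells and 16 in normoxic cells. The other marker identified, miR-451-5p, had 19 reads in hypoxic exosomes and 13 in normoxic cells, and was listed at 0 elsewhere. Both arms of miR-144 were listed at 0 in every library. The liver marker miR-122-5p had 15.1 RPM in hypoxic exosomes, 11.1 RPM in normoxic exosomes, 5.72 RPM in hypoxic cells and 14.9 RPM in normoxic cells. Its shares of the miRNA reads were 0.172%, 0.971%, 0.00212% and 0.00292% in the same order, so they were higher in exosomes. The part of RNA from other sources, such as serum, in the exosomal values of the clusters was not tested.

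Of 7 muscle markers, 0 were identified in hypoxic exosomes, 1 in normoxic exosomes, 2 in hypoxic cells and 3 in normoxic cells, with 14.2 RPM in hypoxic cells and 32.2 RPM in normoxic cells. Among these, miR-499-5p had 12.7 RPM in hypoxic cells and 26.6 RPM in normoxic cells, and miR-206-3p had 1.51 RPM and 3.27 RPM. Only normoxic libraries held miR-1-3p, with 10 reads in exosomes and 24 in cells. Both forms of miR-133 and of miR-208 were listed at 0 in every library.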

How the data were processed

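Total RNA from H9c2 cells and their exosomes was size-selected for small RNA, ligated to adaptors, amplified and sequenced by the authors on an Illumina platform. The authors deposited RPM for 765 rat mature miRNAs in 4 libraries, 1 per condition. The submitters' processing notes name the build Rnor 6.0. The denominator of the RPM, the aligner and the counter were not given in the sources used here. No pairing of samples applied.

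The deposited RPM were divided by the step of each library, and all (100%) came out whole to a tolerance of 0.1 read. These reads served for intervals and limits, with no count model. Ratios were taken where both libraries had at least 10 reads, and a ratio above 2 or below 0.5 passed the threshold, as in the study. Depth was 13598 to 5310302 miRNA reads, which leaves values in normoxic exosomes the least precise.

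Named miRNAs were the 9 guide arms, their opposite arms, others with the same seeds, the 3 of nearest pattern for each arm identified in all libraries, and miR-21-5p and miR-210-3p. The choice of miR-3596d, miR-30c-5p and miR-450b-5p followed a look at their values. The members and lists were chosen with earlier results of these data known. Marker lists for white blood cells (0, 0, 2 and 1 of 4 identified in hypoxic exosomes, normoxic exosomes, hypoxic cells and normoxic cells) and endothelium (1, 1, 2 and 2 of 2) were also counted. The miRNA sequences and positions came from RefSeq (GRCr8), a different build from that of the reads, and were matched by name only.

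Alternatives were scaling to the miRNA total, with and without miR-21-5p, by the trimmed mean of M values (30% trim of ratios, 5% of levels, own implementation) and to a median ratio of 1, a minimum of 50 reads, a pseudocount of 1 RPM and thresholds of 1.5 and 3. The computations were tested on simulated data and were run in Python 3.11.15 (pandas 2.3.3, scipy 1.17.1, numpy 2.4.6, matplotlib 3.10.9).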

Additional observations from a re-analysis of the deposited data

Results flagged for a closer look

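miR-25-3p and miR-92a-3p had ratios on opposite sides of 1 in exosomes and in cells on the RPM scale. miR-25-3p had a ratio of hypoxia to normoxia of 8.41 in exosomes and 0.701 in cells, and miR-92a-3p had 6.08 in exosomes and 0.572 in cells, all on the RPM scale. With 1 library per condition the difference was not tested. It was shared by 63 of the 71 miRNAs identified in all 4 libraries, and it depended on the scale. Scaled to the miRNA total, miR-25-3p was above 1 in both, at 1.09 in exosomes and 1.33 in cells, and the contrast of miR-92a-3p ran the other way, at 0.791 in exosomes and 1.08 in cells.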

How the results depend on the processing

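Directions on the RPM scale depended on the scaling. In hypoxic against normoxic cells the median ratio of the 9 guide arms was 1.33 scaled to the miRNA total, 1.16 with miR-21-5p left out of it, 1.15 with the median ratio set to 1 and 1.15 by trimmed mean of M values, and 0 arms passed a threshold under any of these. On the RPM scale a threshold of 1.5 gave 4 of the 9 arms and one of 3 gave 0, with no count made over all miRNAs. The median RPM ratio of all 316 miRNAs, 0.612, was itself past the threshold of 1.5. Thus 4 of 9 was not more than the background share. In hypoxic against normoxic exosomes, in the same order of scalings, the median was 0.942, 0.939, 1.08 and 0.920 with 0 arms past a threshold, and the ratio of miR-92a-3p was 0.791, 0.789, 0.904 and 0.773. In hypoxic exosomes against hypoxic cells the median was 0.789, 0.415, 0.524 and 0.488, and miR-19a-3p reached 1.22 on the miRNA total. The counts were 2, 3, 2 and 3 of 5, all below 0.5. Of all 138 miRNAs, 44, 56 and 50 were below 0.5, with no count made for the trimmed mean. In normoxic exosomes against normoxic cells the median was 0.848, 0.392, 0.626 and 0.270, and miR-25-3p reached 1.19 on the miRNA total. The counts were 0, 1, 1 and 2 of 2, all below 0.5. Of all 73 miRNAs, 22, 30 and 24 were below 0.5, with no count made for the trimmed mean. The shifts between scalings follow from the scaling itself, which moves every ratio of a comparison by 1 factor.

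A minimum of 50 reads left 3 arms in hypoxic exosomes against hypoxic cells, all below 0.5, and none in the comparisons with normoxic exosomes, which gave no value. With no minimum and a pseudocount of 1 RPM, 4 of 5 arms passed in hypoxic against normoxic exosomes. All 9 passed in each exosome against cell comparison, with a median of 0.00366 under normoxia. For the arms listed at 0 in exosomes this was fixed in advance, because each had more than 1 RPM in cells. With the pseudocount alone, the median of the arms identified in both normoxic libraries was 0.00296. How many of all miRNAs passed under these settings was not counted. No paired analysis was possible because each group had 1 library, and no library could be left out for the same reason. Depth limits the normoxic exosomes most, where 7 of 9 arms had under 10 reads.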
